A study of Sus scrofa with 10 samples.

Results

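Ribosomal protein genes were described across 9 tissues of the pig from 1 deposited table of gene expression values. The members were the rows of that table whose gene identifier maps to a pig symbol made of RPL or RPS and a number, together with RPLP0, RPLP1, RPLP2 and RPSA, and without the RPS6K kinases. RPS19BP1, which encodes a protein that binds a ribosomal protein, was left out as well. This gave 78 genes of the 25880 rows, of which 71 encode standard ribosomal proteins (41 of the large subunit and 30 of the small subunit, called core genes from here on) and 7 are paralogs, that is, additional gene copies: RPL3L, RPL7L1, RPL10L, RPL22L1, RPL26L1, RPL36AL and RPS27L. The table of Ensembl identifiers named 51 of the members, and the RefSeq gene at the same position named the other 27.

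The ribosome translates messenger RNA into protein. It is built from ribosomal RNA and from ribosomal proteins, most of which are present as a single copy in each particle, so cells keep the production of the different proteins in balance. Their mRNAs are among the most abundant in many cell types and usually carry a pyrimidine-rich start that ties their translation to growth signals. A few ribosomal proteins have paralogs whose use differs between tissues, of which RPL3L in heart and skeletal muscle is the best known.

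The animals were domestic pigs of the Northeast Min breed aged 60 days, with no treatment named in the labels. Total RNA was sequenced once each from heart, psoas major, longissimus dorsi, liver, kidney, lung, spleen, subcutaneous adipose tissue and ovary, and once from a mixture of tissues whose label lists the same organs with muscle unspecified and without adipose tissue. The labels give neither the number of animals nor whether the tissues came from the same animal. With 1 library per tissue there is no replicate against which to check a difference, so every comparison is a description with no error and no p-value.

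The values are read as FPKM, fragments per kilobase of transcript and per unit of library depth, which scales each gene by its length and each library by its depth. The values of a single-tissue library summed to between 292495 and 369254, and the spacing of values in short genes gave a depth of 1.15e+07 to 3.15e+07 fragments, uncertain by a factor of 2. All 39 named tissue markers were highest in their own tissue, although the liver marker SERPINA1 was at only 0.55 FPKM in liver. The summed level of 5 immune cell markers was 423 FPKM in spleen, 271 FPKM in lung and between 3.37 and 24.5 FPKM elsewhere. The summed level of 4 markers of cycling cells was 55.2 FPKM in spleen, 24.3 FPKM in lung, 20.7 FPKM in ovary and 1.02 to 6.06 FPKM elsewhere. In whole tissue, fewer cells of a type and less RNA per cell cannot be told apart. Mammalian genomes hold many processed copies of ribosomal protein genes, and how fragments that match several copies were assigned is not given in the sources used here.

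Core ribosomal protein mRNAs were abundant in each of the 9 tissues. The median core gene had a mean of 438 FPKM over the tissues, against 5.40 FPKM for the median of the 15637 genes that reached 1 FPKM in at least 1 tissue. The mean was 100 FPKM or more in 67 of the 71 core genes and 1000 FPKM or more in 4. These 4 were RPS28 at 1508 FPKM, RPL31 at 1408 FPKM, RPL11 at 1066 FPKM and RPS15 at 1018 FPKM, and RPS16 followed at 970.1 FPKM. RPL11 joins RPL5 and the 5S ribosomal RNA in a complex that also binds the p53 regulator MDM2, and RPL5 had a mean of 489.9 FPKM. FPKM corrects for transcript length, but the order of genes also rests on how gene models divide a locus, as for RPL13A below. It rests as well on how fragments that match several copies were assigned.

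RPS28 is a small protein near the mRNA exit of the small subunit. RPS28 was at 1879.9 FPKM in heart, 1027 in psoas major, 1669 in longissimus dorsi, 864 in liver, 1288 in kidney, 1287 in lung, 1650.3 in spleen, 2059 in subcutaneous adipose and 1846 in ovary. RPL31 lies close to the exit of the protein tunnel on the large subunit. RPL31 was at 1316 FPKM in heart, 1042 in psoas major, 1286 in longissimus dorsi, 688 in liver, 921 in kidney, 1306 in lung, 2234 in spleen, 1839 in subcutaneous adipose and 2039.5 in ovary. Both genes were lowest in liver, and the highest library was subcutaneous adipose for RPS28 and spleen for RPL31.

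At the low end, the 3 lowest core means were 14.9 FPKM for RPL36A, 12.5 FPKM for RPS21 and 10.3 FPKM for RPL13A. RPL15, at 110.2 FPKM, was also among the 5 lowest. RPS21, a small protein of the small subunit, was at 13.5 FPKM in heart, 12.9 in psoas major, 15.8 in longissimus dorsi, 11.7 in liver, 14.2 in kidney, 8.16 in lung, 14.6 in spleen, 9.54 in subcutaneous adipose and 11.7 in ovary. RPL36A was at 14.1 FPKM in heart, 10.6 in psoas major, 11.4 in longissimus dorsi, 5.26 in liver, 4.35 in kidney, 16.3 in lung, 32.1 in spleen, 8.88 in subcutaneous adipose and 31.2 in ovary. The RPL36A model overlaps that of GLA and the RPS21 model that of CABLES2, and whether these models hold all reads of their genes was not tested. The level of RPL13A is described below with the neighbouring gene model that covers part of its RefSeq gene.

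Nearly every member was detected everywhere. At 1 FPKM or more, 76 of the 77 members that reached this level in at least 1 tissue were detected in all 9 tissues, against 49% of all 15637 genes. The exception was RPL3L, at 0.244 to 0.366 FPKM in lung, spleen, subcutaneous adipose and ovary. The remaining member, RPL10L, is known as a retrogene of RPL10 used in the testis, a tissue not among those analysed here. RPL10L (ENSSSCG00000005001, chr1:176603248-176603892, minus strand) is listed at 0 in every library, and a value of exactly 0 can also be a failed estimate. RPL18 has a second model of 592 bp on chromosome 1 that is listed at 0 throughout, and its level was taken from the model on chromosome 6.

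**Figure D1:**
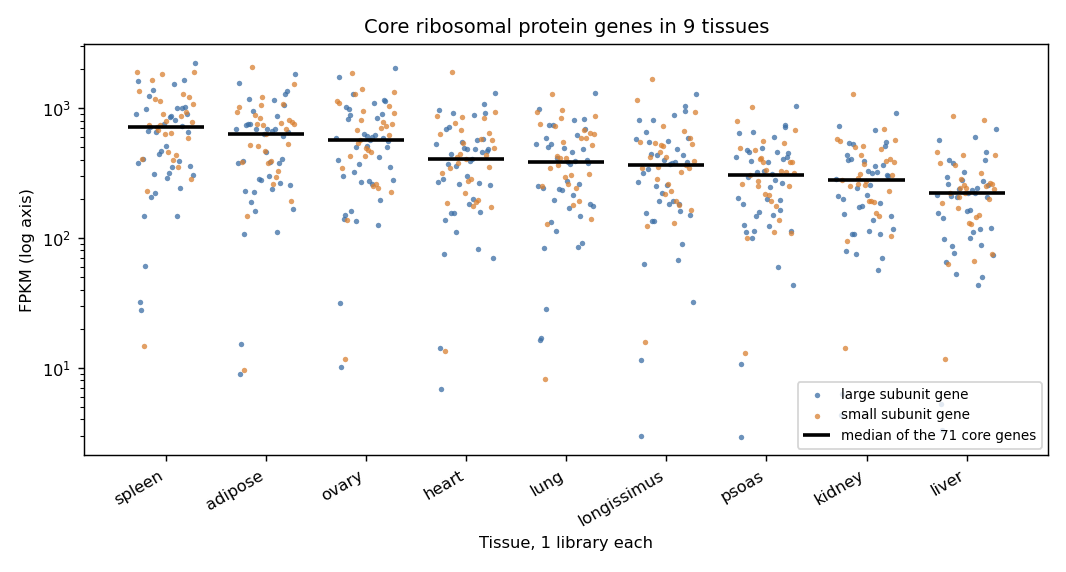
FPKM of the 71 core ribosomal protein genes (log axis) in each of the 9 tissues (1 library each, horizontal axis); a point is 1 gene, coloured by subunit, and the black line is the median of the 71 genes. The median runs from 712 FPKM in spleen to 221 FPKM in liver, and the points far below the others in each column are RPL13A, RPL36A and RPS21. With the libraries scaled in 4 other ways, spleen and adipose kept a positive and kidney and liver a negative median difference from the other tissues, while the sign in heart, muscle, lung and ovary changed under at least 1 scaling.

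The median core gene was at 712 FPKM in spleen, 628 FPKM in subcutaneous adipose, 565 FPKM in ovary, 405 FPKM in heart, 385 FPKM in lung, 365 FPKM in longissimus dorsi, 306 FPKM in psoas major, 279 FPKM in kidney and 221 FPKM in liver. The members together held 16.3% of the summed FPKM in spleen, 15.0% in subcutaneous adipose, 14.8% in ovary, 10.2% in lung, 9.97% in heart, 8.05% in longissimus dorsi, 7.66% in kidney, 7.47% in psoas major and 5.05% in liver. Spleen, adipose and ovary thus formed a group with high values, and liver was lowest on both measures.

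The order of the muscles and heart in these shares changed when the most abundant other genes were left out. The 10 highest genes took 35% of the summed FPKM in longissimus dorsi, 24.9% in liver, 24.4% in psoas major and 17.9% in heart, but 7.23% to 10.6% in the other 5 tissues. With the 100 highest genes outside the family removed from each sum, the share of the ribosomal protein genes was 21.0% in spleen, 20.4% in adipose, 19.7% in longissimus dorsi, 17.9% in ovary, 16.4% in heart, 14.3% in psoas major, 13.1% in lung, 10.2% in liver and 9.95% in kidney. Spleen and adipose were still the highest of the 9, whereas longissimus dorsi moved to the third place and kidney, in place of liver, was lowest.

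Neighbours in the order of core medians differed little, and no spread between animals is known for any of them. Subcutaneous adipose was above ovary in 37 of the 71 core genes (29.1% of all genes), with a median difference of 0.03 on the log2(FPKM + 1) scale. Heart was above lung in 40 core genes (24% of all genes, median 0.04), lung above longissimus dorsi in 43 (80.3%, median 0.05) and psoas major above kidney in 36 (26%, median 0.06). Each of these 4 neighbouring pairs had at least 28 core genes on either side as deposited, and the sign of each median changed under at least 1 of 4 other scalings of the libraries.

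Other steps of the order were shared by most core genes as deposited. Spleen was above subcutaneous adipose in 57 core genes (61% of all genes), with a median difference of 0.35. Ovary was above heart in 66 (75.8%, median 0.48), and kidney above liver in 66 (78.3%, median 0.42). The direction of these 3 steps rests on the scaling. With median-of-ratios factors, which divide each library by its median ratio to the geometric mean of all libraries, the medians were -0.016, -0.43 and -0.70. With each library centred on the median of all genes they were -0.042, -0.35 and -0.51. Longissimus dorsi was above psoas major in 63 of the 71 core genes, against 25.6% of all genes, with a median difference of 0.32, which is 1.25-fold. The median difference of all genes was -0.15. The core median of this pair stayed positive under the 4 other scalings, from 0.11 to 0.70, while the median of all genes ran from -0.28 to 0.10.

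The contrast between the ends of the order was broad as deposited. Spleen was above liver in 70 of the 71 core genes (77% of all genes), RPL39 being the exception, with a median difference of 1.70, a 3.25-fold difference. It reached 2-fold in 63 core genes (88.7%), against 43% of all genes. With median-of-ratios factors the median was 0.37, and the difference reached 2-fold in 6 core genes (8.45%), against 16.3% of all genes. With centring the median was 0.69, with 18 core genes (25.4%) against 13.8% of all genes. Spleen was thus above liver in the median under each scaling, but the size of the difference was not stable. Between spleen and lung, the tissues with the most immune cell markers, spleen was higher in 70 core genes (47.5% of all genes) by a median of 0.81. In 12 core genes spleen was higher by 2-fold or more (16.9%, against 7.57% of all genes). RPL10A was the only core gene not higher in spleen than in lung. Under the 4 other scalings the median of this pair lay between 0.47 and 0.98. The count at 2-fold was 4 core genes (5.63%, against 6.34% of all genes) with libraries scaled to the mean sum. It was 3 (4.23%, against 9.21%) with quantile normalisation, 29 (40.8%, against 7.96%) with median-of-ratios factors and 34 (47.9%, against 10.3%) with centring.

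Each tissue class was then compared with the mean of the other 7 classes on the log2(FPKM + 1) scale, with psoas major and longissimus dorsi averaged into 1 skeletal muscle class. In spleen the median difference of the 77 detected members was 0.88, against 0.20 for all genes, and 69 of the 71 core genes were above the other classes. The difference was 1 or more, that is at least 2-fold, in 24 members (31.2%), against 17.4% of all genes. Spleen was the highest class of 47 members (61.0%, against 19.2% of all genes). Under 4 other scalings the median stayed positive, from 0.38 to 0.80, but the excess of members at 1 or more over all genes did not hold under each of them. With median-of-ratios factors 2 members were at 1 or more (2.60%, against 10.7% of all genes) and with centring 6 (7.79%, against 10.6%), so their share was below that of all genes. With median-of-ratios factors spleen was the highest class of 16 members (20.8%, against 14.3% of all genes) and skeletal muscle of 31 (40.3%, against 14.6%). RPS19, a gene mutated in Diamond-Blackfan anaemia, was 1.31 above the other classes in spleen, RPS15 1.14, RPLP0 1.07 and RPL13 1.38. The largest core difference was 2.40 for RPL7A and the lowest -0.70 for RPL39, a small protein that lines the tunnel through which the new protein leaves the ribosome. The summed immune, erythroid and cycling cell markers were also highest in spleen, and their part in these differences was not tested. Of the single markers, LYZ was highest in lung and CDK1 in ovary, and the rest in spleen.

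Subcutaneous adipose tissue had a median of 0.54, against -0.12 for all genes, and 67 of the 71 core genes were above the other classes. At 1 or more, 3 members were higher (3.9%, against 7.64% of all genes), so the difference was broad and small. The 3 were RPLP2 at 1.69, RPL39 at 1.48 and the paralog RPL22L1 at 1.995. Adipose was the highest class of 13 members (16.9%, against 6.75%) as deposited. With median-of-ratios factors it was the highest class of 18 (23.4%, against 8.02%) and spleen of 16. With centring adipose was highest for 31 (40.3%, against 10.6%) and spleen for 24. With quantile normalisation adipose was highest for 9 (11.7%, against 9.42%), near the share of all genes. The immune cell markers summed to 24.5 FPKM and the cycling cell markers to 2.19 FPKM in this library, against 423 and 55.2 FPKM in spleen.

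In the ovary the median was 0.57, against 0.47 for all genes, and it changed sign to -0.17 with median-of-ratios factors and to -0.070 with centring on the median of all genes. At 1 or more, 5 members were higher (6.49%, against 26.8% of all genes), and the ovary was the highest class of 13 members (16.9%, against 29% of all genes). RPL7A, at 2.23, differed most among the core genes, and RPL29, at -0.21, was lowest. The ovary thus held a smaller share of the members than of all genes at this threshold as deposited. With quantile normalisation the reverse was found, with 25 members at 1 or more (32.5%, against 13.6% of all genes) and the ovary the highest class of 40 (51.9%, against 17.6%).

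Liver had the lowest values as deposited. The median difference was -1.05, against -0.70 for all genes, and each of the 71 core genes was below the mean of the other classes. The difference was -1 or lower in 41 members (53.2%), against 32.1% of all genes, and liver was the lowest class of 60 members (77.9%, against 40.8%). With median-of-ratios factors the liver median was -0.033, against -0.13 for all genes, and 1 member was at -1 or lower (1.3%, against 12.4% of all genes). With centring 1 member was also at -1 or lower (1.3%, against 8.01%). The excess of low members in liver over all genes therefore turned into a deficit under these 2 scalings, and it held with quantile normalisation at 51 members (66.2%, against 12.9%). RPL7A, at -2.51, was lowest, and RPS20 was next at -1.64. RPS29, a zinc-binding protein of the small subunit, was at -0.01, the value nearest to 0 among the core genes, and RPL27A was at -0.13.

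Kidney had a median of -0.59, against 0.07 for all genes, with 68 of the 71 core genes below the other classes. At -1 or lower were 3 members (3.9%, against 7.78% of all genes), namely RPL7A at -1.96, RPL36A at -1.53 and RPL22L1 at -1.12. RPL15 was the highest core gene there, at 0.57. The kidney median was between -0.34 and -0.88 under the 4 other scalings. The smaller share of members than of all genes at -1 or lower did not hold under each of them. With median-of-ratios factors 15 members were at -1 or lower (19.48%, against 9.42% of all genes) and with centring 17 (22.08%, against 13.04%). With libraries scaled to the mean sum and with quantile normalisation the share of members stayed below that of all genes.

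The remaining classes lay nearer to the middle, and the sign of each depended on the scaling. The heart median was -0.01, against -0.35 for all genes, and became 0.30 with median-of-ratios factors. The skeletal muscle median was -0.32, against -0.64 for all genes, and became 0.57 with the same factors. The lung median was -0.05, against 0.34 for all genes, and became 0.18 with quantile normalisation and -0.68 with median-of-ratios factors. Members at 1 or more numbered 2 in heart (8.09% of all genes), 1 in skeletal muscle (5.54%) and 0 in lung (20.4%), kidney (13.9%) and liver (7.7%). At -1 or lower were 1 in heart (14.2% of all genes), 4 in skeletal muscle (29.3%) and 3 in lung (5.24%). The members higher in heart were RPL7A and RPL3L, and RPL3L was the one higher in skeletal muscle. RPL3L was also the one member at -1 or lower in spleen (8.88% of all genes), adipose (7.97%) and ovary (6.15%).

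The other classes were the highest or lowest of fewer members. Beside spleen, adipose and ovary, the highest class was kidney for 2 members (13% of all genes), heart for 1 (7.12%) and skeletal muscle for 1 (4.16%), and for none was it liver (5.69%) or lung (15%). The kidney pair was RPL15 and RPS27L, the heart gene RPL29 and the muscle gene RPL3L. Beside liver, the lowest class was skeletal muscle for 7 members (27.1% of all genes), kidney for 4 (3.46%), lung for 4 (2.69%) and heart for 2 (15.3%), and for none was it spleen (4.11%), adipose (4.1%) or ovary (2.48%). Lung was lowest for RPS21, RPL39, RPL3L and RPS27L.

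All genes together also differed between classes. Their median was between -0.70 in liver and 0.47 in ovary as deposited, and centring removed shifts of up to 0.77. Relative to the median of all genes, the members were higher in spleen by 0.68 and in adipose by 0.66, with offsets of -0.66 in kidney and -0.39 in lung. Centring leaves these offsets from the median of all genes unchanged by construction. Under the scalings other than centring, the spleen, adipose and kidney offsets kept their sign, while the lung offset became 0.30 with quantile normalisation. The liver offset was -0.35 as deposited, 0.10 with median-of-ratios factors and -0.94 with quantile normalisation.

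As deposited, the difference between the highest and the lowest class was smaller for ribosomal protein genes than for most genes. The median core gene ranged over 1.75 on the log2 scale (3.37-fold) and the median of all genes over 2.22 (4.67-fold). A range above 2 was found in 24 of the 77 members (31.2%), against 58.4% of all genes. With liver left out the count was 9 (11.7%, against 49.8% of all genes), with spleen left out 11 (14.3%, against 54.5%) and with median-of-ratios factors 8 (10.4%, against 46.4%). With quantile normalisation it was 31 (40.3%, against 45.5%), so the gap to all genes was small under that scaling. The 5 core genes with the smallest range were RPS21 at 0.77, RPL15 at 1.02, RPS29 at 1.09, RPS2 at 1.14 and RPL30 at 1.22. The 5 with the largest were RPL7A at 4.29, RPL3 at 2.98, RPL39 at 2.98, RPL13A at 2.87 and RPLP2 at 2.70.

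Large and small subunit genes differed little from each other in each tissue class. The median difference of the large subunit genes minus that of the small subunit genes lay between -0.09 in spleen and 0.09 in liver. The median range was 1.70 for large subunit genes and 1.82 for small subunit genes. Within the small subunit, RPS6, the protein phosphorylated by the S6 kinases, was at 441 FPKM in heart, 405 in psoas major, 456 in longissimus dorsi, 241 in liver, 311 in kidney, 411 in lung, 735 in spleen, 834 in subcutaneous adipose and 570.4 in ovary. RPSA, also known as a laminin receptor, was at 223 FPKM in heart, 219 in psoas major, 219 in longissimus dorsi, 223 in liver, 256 in kidney, 293 in lung, 633 in spleen, 463 in subcutaneous adipose and 426 in ovary. RPS27A, which is made as a fusion to ubiquitin, was at 575 FPKM in heart, 325 in psoas major, 321 in longissimus dorsi, 317 in liver, 482 in kidney, 588 in lung, 860.5 in spleen, 772 in subcutaneous adipose and 707 in ovary. These 3 were above their own mean over the tissues in spleen, adipose and ovary, and in no case was liver above it.

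The stalk of the large subunit, formed by RPLP0 with RPLP1 and RPLP2, recruits the elongation factors. RPLP0 was at 1075 FPKM in heart, 717 in psoas major, 955 in longissimus dorsi, 396 in liver, 508 in kidney, 829 in lung, 1643 in spleen, 1051 in subcutaneous adipose and 1151 in ovary. RPLP1 (ENSSSCG00000004970, chr1:167296075-167300229, plus strand) was at 110.3 FPKM in heart, 149 in psoas major, 249.5 in longissimus dorsi, 53.0 in liver, 74.6 in kidney, 113 in lung, 221 in spleen, 161 in subcutaneous adipose and 134 in ovary. RPLP2 was at 470.3 FPKM in heart, 419 in psoas major, 383 in longissimus dorsi, 206 in liver, 305 in kidney, 396 in lung, 896 in spleen, 1342 in subcutaneous adipose and 497 in ovary. The stalk genes did not share 1 profile: RPLP0 was highest in spleen, RPLP2 in adipose, and RPLP1 in longissimus dorsi among the single libraries. The RPLP2 model lies within that of CD151 on the same strand. CD151 was also highest in adipose, at 77.7 FPKM against 6.24 to 41.8 FPKM elsewhere, and its part in the RPLP2 values was not tested.

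Members were next compared with each other. For each gene, the log2 level was taken relative to its own mean over the 9 tissues, and the median of that value over the core genes was subtracted, which leaves a departure from the family that depends little on library scaling. A departure of 1 or more in at least 1 tissue was found in 8 of the 71 core genes (11.3%) and in 4 of the 6 detected paralogs. Of all genes, 73.8% departed from the same profile, which was made from the core genes themselves, so part of the contrast is by construction. The 8 core genes were RPL3, RPL7A, RPL10A, RPL13A, RPL15, RPL29, RPL39 and RPLP1, all of the large subunit and none of the 30 small subunit genes. The same 8 departed with the libraries scaled to the mean sum, with median-of-ratios factors and with centring, whereas a pseudocount of 5 in place of 1 left 6, without RPL13A and RPL15. Quantile normalisation gave 10, without RPL15 and with RPL36A, RPLP2 and RPS21.

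**Figure D2:**
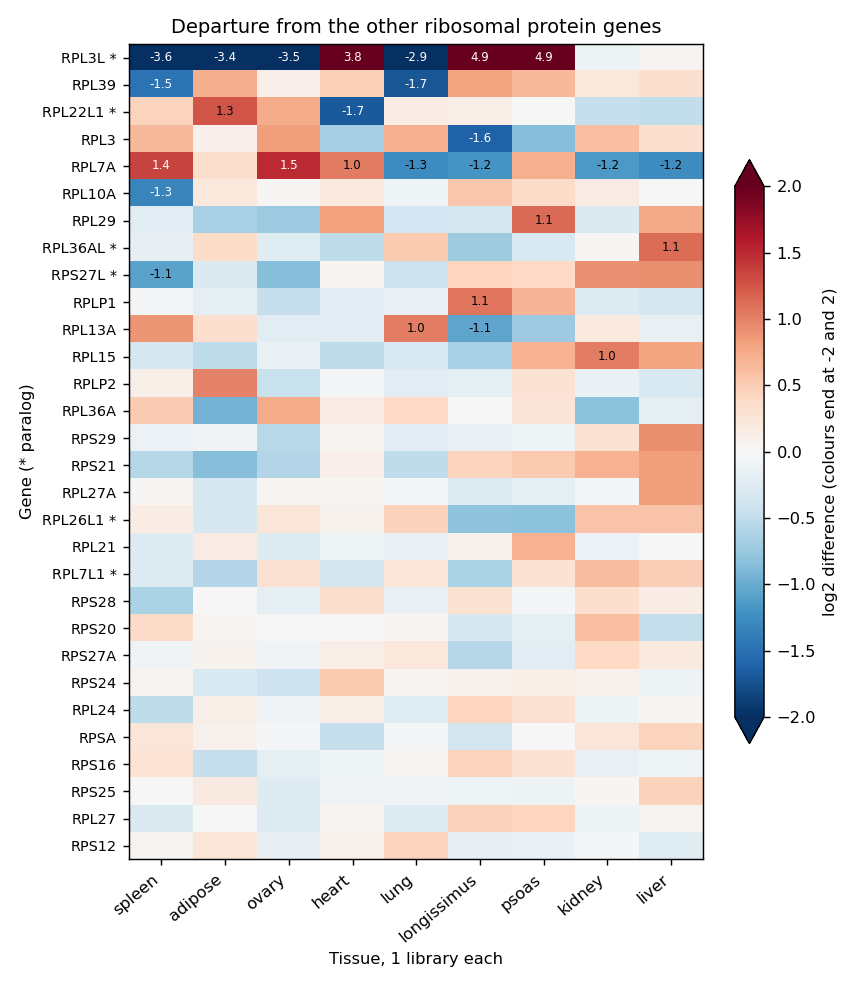
Departure of ribosomal protein genes from the median profile of the core genes (colour, log2 difference) in 9 tissues (columns, 1 library each), for the 30 members with the largest departure (rows, a star marks a paralog); numbers are printed at 1 or more either way. RPL3L stands out at 4.9 in both muscles and at -2.9 to -3.6 in lung, spleen, adipose and ovary, and RPL7A is the core gene with the most tissues past 1.

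RPL7A (ENSSSCG00000035904, chr1:272961706-272970496, plus strand) departed in 7 of the 9 tissues. It was at 462 FPKM in heart, 264 in psoas major, 90.4 in longissimus dorsi, 49.8 in liver, 69.9 in kidney, 91.0 in lung, 995 in spleen, 404 in subcutaneous adipose and 898 in ovary. Spleen and ovary were highest, and longissimus dorsi, liver, kidney and lung lowest, with heart, adipose and psoas major between these groups. The departure was 1.49 in ovary, 1.35 in spleen and 1.03 in heart, and -1.25 in lung, -1.24 in liver, -1.18 in longissimus dorsi and -1.15 in kidney. The RPL7A model ends at the same base as SURF1, a cytochrome oxidase assembly gene on the opposite strand, whose model was at 21.6 to 49.1 FPKM. SURF1 showed no such split, with its highest value in heart and its lowest in lung.

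RPL39 (ENSSSCG00000030849, chrX:98178149-98181610, minus strand) was low in lung and spleen. It was at 138 FPKM in heart, 110.4 in psoas major, 156 in longissimus dorsi, 65.2 in liver, 79.6 in kidney, 28.5 in lung, 60.6 in spleen, 231 in subcutaneous adipose and 151 in ovary. The departure was -1.71 in lung and -1.48 in spleen, the libraries with the most immune cell markers. The part of immune cells in this was not tested.

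RPL15 (ENSSSCG00000037030, chr13:10715998-10720037, plus strand) was at 75.3 FPKM in heart, 125 in psoas major, 62.6 in longissimus dorsi, 98.8 in liver, 153 in kidney, 83.7 in lung, 148 in spleen, 106 in subcutaneous adipose and 139 in ovary, with kidney highest and longissimus dorsi lowest. The departure was 1.03 in kidney. RPL15 overlaps NKIRAS1 on the opposite strand, whose model was at 3.92 to 25.5 FPKM. RPL29 (ENSSSCG00000027573, chr13:34119539-34121859, minus strand) was at 548 FPKM in heart, 493 in psoas major, 223 in longissimus dorsi, 279 in liver, 177 in kidney, 232 in lung, 464 in spleen, 281 in subcutaneous adipose and 267 in ovary, with heart and psoas major highest and kidney lowest. The departure was 1.14 in psoas major. Its model lies inside the ACY1 model on the opposite strand, an aminoacylase gene, which was at 393 FPKM in kidney and 13.8 to 59.8 FPKM elsewhere. RPLP1, whose values are given above, departed by 1.07 in longissimus dorsi.

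RPL3 sits close to the peptidyl transferase centre, and RPL3L replaces it in ribosomes of striated muscle. RPL3L (ENSSSCG00000032657, chr3:40005075-40016701, plus strand) was at 134 FPKM in heart, 211 in psoas major, 263 in longissimus dorsi, 4.45 in liver, 5.45 in kidney, 0.244 in lung, 0.366 in spleen, 0.358 in subcutaneous adipose and 0.263 in ovary. RPL3 (ENSSSCG00000040494, chr5:8922653-8934282, plus strand) was at 69.9 FPKM in heart, 43.2 in psoas major, 32.3 in longissimus dorsi, 74.1 in liver, 117 in kidney, 176 in lung, 302 in spleen, 167 in subcutaneous adipose and 280.2 in ovary. RPL3L was high in heart and both skeletal muscles and at 5.45 FPKM or less in each other tissue, and RPL3 had its lowest values in longissimus dorsi, psoas major and heart. RPL3L made up 65.8% of the summed FPKM of the pair in heart, 83.0% in psoas major and 89.1% in longissimus dorsi. The share was 5.67% in liver, 4.43% in kidney and 0.0936% to 0.214% in the other 4 tissues. The labels do not say how the tissues were dissected, and the skeletal muscle markers summed to 8.08 FPKM in liver and 1.75 FPKM in kidney, against 30204 FPKM in psoas major.

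The sum of RPL3 and RPL3L stayed nearer to the rest of the family than RPL3 alone in heart, longissimus dorsi, kidney, lung, spleen and ovary. RPL3 alone departed by -0.66 in heart, -0.86 in psoas major and -1.62 in longissimus dorsi. The sum departed by 0.06 in heart, 0.85 in psoas major and 0.71 in longissimus dorsi, so in psoas major it lay about as far above the family as RPL3 alone lay below. In liver (0.34 alone, -0.40 for the sum) and adipose (0.09 alone, -0.72 for the sum) the sum lay farther away. The elongation factor gene EEF1A2, known for its use in muscle and neurons, was high in the same 3 tissues, at 1942 FPKM in heart, 2284 FPKM in psoas major and 3058 FPKM in longissimus dorsi, and at 0.1 to 1.41 FPKM in the others.

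**Figure D3:**
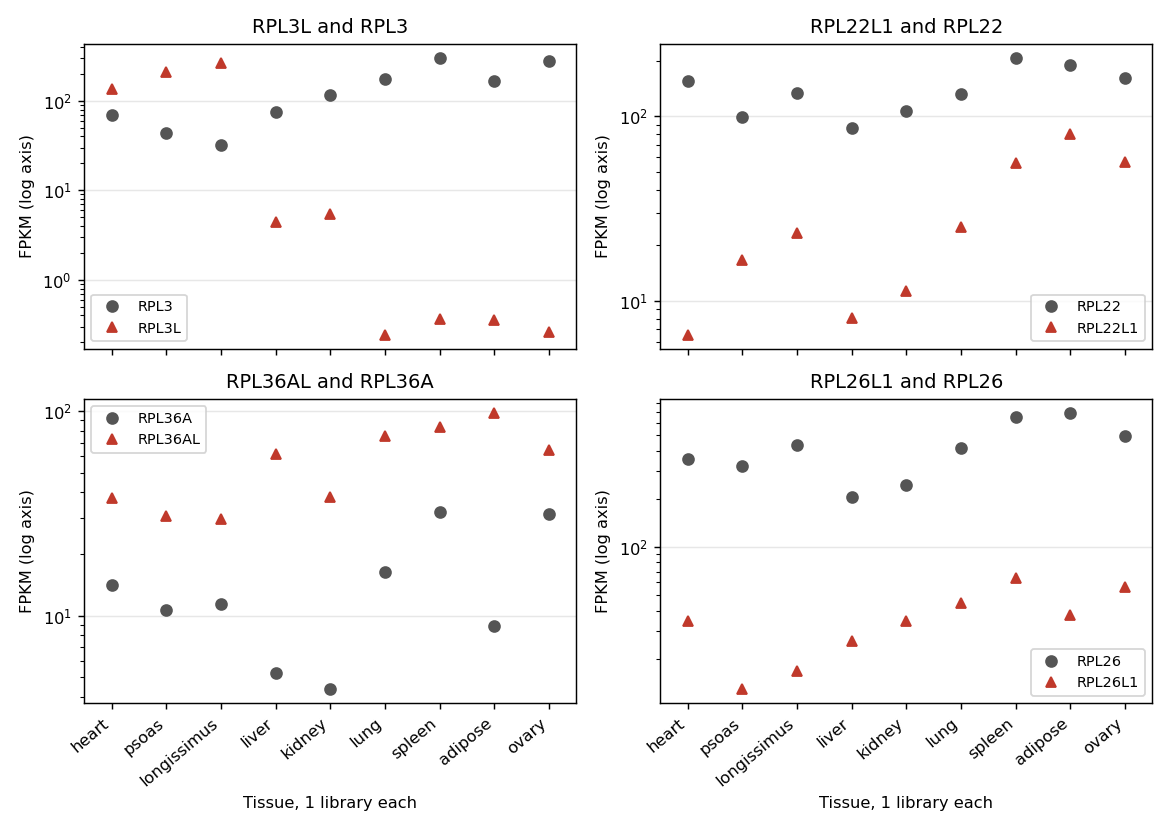
FPKM (log axis) of 4 paralogs (triangles) and their parent genes (circles) in 9 tissues (1 library each). RPL3L exceeds RPL3 in heart, psoas major and longissimus dorsi, RPL36AL exceeds RPL36A in each tissue, and RPL22L1 and RPL26L1 stay below RPL22 and RPL26.

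RPL22L1 (ENSSSCG00000036114, chr13:109495888-109500225, minus strand), a paralog of the RNA-binding protein RPL22, varied 10.8-fold over the tissue classes on the FPKM + 1 scale. It was at 6.55 FPKM in heart, 16.6 in psoas major, 23.3 in longissimus dorsi, 8.11 in liver, 11.3 in kidney, 25.1 in lung, 55.7 in spleen, 80.5 in subcutaneous adipose and 56.6 in ovary. Its parent RPL22 varied 2.38-fold on that scale, from 86.7 FPKM in liver to 208 FPKM in spleen. The share of RPL22L1 in the sum of the pair was highest in adipose at 29.9%, ovary at 26.0% and spleen at 21.1%, and lowest in heart at 4.06%. RPL22L1 departed from the family by 1.26 in adipose and -1.68 in heart.

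RPL36AL (ENSSSCG00000005006, chr1:179476638-179479147, minus strand) was at 37.5 FPKM in heart, 30.8 in psoas major, 29.6 in longissimus dorsi, 61.9 in liver, 38.1 in kidney, 75.4 in lung, 83.9 in spleen, 98.3 in subcutaneous adipose and 64.9 in ovary, above its X-linked parent RPL36A in each tissue. Its share of the pair was between 67.5 and 92.2%. This share rests on the low values of the RPL36A model, which overlaps that of GLA. The departure was 1.11 in liver. RPL26L1 was at 34.6 FPKM in heart, 12.8 in psoas major, 16.8 in longissimus dorsi, 25.8 in liver, 34.5 in kidney, 44.3 in lung, 64.1 in spleen, 37.5 in subcutaneous adipose and 55.8 in ovary and made up 3.74 to 12.4% of its pair with RPL26. RPL7L1 was at 10.5 FPKM in heart, 11.95 in psoas major, 7.78 in longissimus dorsi, 10.1 in liver, 14.9 in kidney, 16.0 in lung, 20.4 in spleen, 13.0 in subcutaneous adipose and 25.1 in ovary and made up 1.70 to 4.60% of its pair with RPL7. These 3 paralogs thus kept their place above or below the parent gene in each tissue.

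RPS27L, a gene induced by p53, was at 20.9 FPKM in heart, 19.2 in psoas major, 25.5 in longissimus dorsi, 20.8 in liver, 27.3 in kidney, 14.6 in lung, 16.6 in spleen, 23.8 in subcutaneous adipose and 15.9 in ovary. Its range over the classes was 0.86, and its profile ran against that of the family, with lung, ovary and spleen lowest. It departed by -1.07 in spleen. No model of the table carries the name of its parent RPS27, so no share is given, and neither RPL39L nor RPS4Y1 was named.

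For some members the value depends on how the gene models divide the locus. The RPL3 model holds a model on the opposite strand, ENSSSCG00000000089 (chr5:8923674-8927953), whose values followed those of RPL3 closely. It was at 65.9 FPKM in heart, 37.2 in psoas major, 34.1 in longissimus dorsi, 69.6 in liver, 105 in kidney, 159 in lung, 266 in spleen, 168 in subcutaneous adipose and 265 in ovary. With this model added to RPL3, the share of RPL3L in the pair was 49.7% in heart, 72.4% in psoas major and 79.9% in longissimus dorsi. Whether the library kept strand is not given in the sources used here, so reads of the 2 models cannot be told apart.

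RPL13A, known for its role outside the ribosome in silencing inflammatory mRNAs, was at 6.83 FPKM in heart, 2.95 in psoas major, 2.99 in longissimus dorsi, 3.34 in liver, 6.25 in kidney, 17.0 in lung, 28.1 in spleen, 15.2 in subcutaneous adipose and 10.1 in ovary. Its RefSeq gene spans chr6:54551772-54568752, but the model with its name ends at 54563806, and the model named FLT3LG (chr6:54564818-54572616) covers the 3' part together with the small nucleolar RNA models SNORD33, SNORD34 and SNORD35A. The FLT3LG model was at 261 FPKM in heart, 169 in psoas major, 262 in longissimus dorsi, 107 in liver, 194 in kidney, 279.9 in lung, 480.5 in spleen, 382 in subcutaneous adipose and 373 in ovary. FLT3LG encodes a cytokine ligand of blood progenitors, and its model correlated with the family profile at r = 0.98 over the 9 tissues. The departures of RPL13A, 1.03 in lung and -1.06 in longissimus dorsi, were not found with the FLT3LG model in its place.

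RPL10A (ENSSSCG00000001543, chr7:31327620-31330699, plus strand) was at 483 FPKM in heart, 387 in psoas major, 559.8 in longissimus dorsi, 223 in liver, 327 in kidney, 385 in lung, 288 in spleen, 689 in subcutaneous adipose and 604 in ovary, with a departure of -1.33 in spleen. Its model lies almost wholly within that of FANCE (chr7:31313148-31330616), a DNA repair gene on the same strand. The FANCE model was at 127 FPKM in spleen and at 2.62 to 10.2 FPKM in the other 8 tissues. Added to RPL10A, it gave 416 FPKM in spleen, and RPL10A then no longer departed. With these substitutions at the RPL13A and RPL10A loci, the other 6 core genes still departed.

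**Figure D4:**
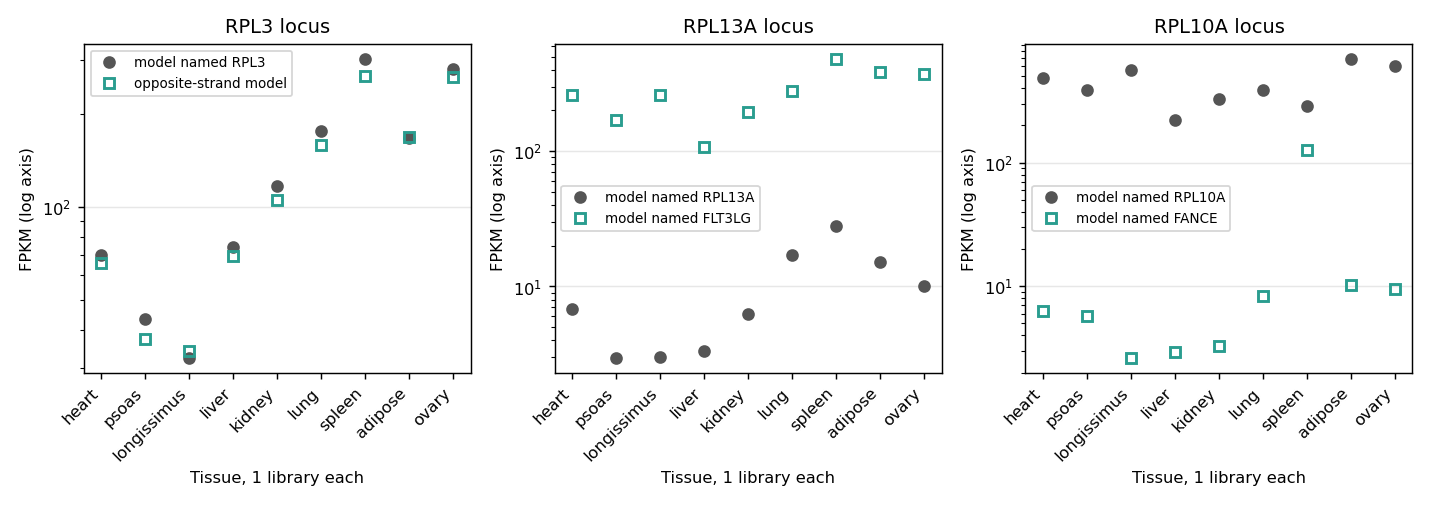
FPKM (log axis) in 9 tissues (1 library each) of the models named RPL3, RPL13A and RPL10A (circles) and of an overlapping or adjacent model at each locus (squares). The opposite-strand model tracks RPL3, the FLT3LG model lies above RPL13A in each tissue, and the FANCE model is at 127 FPKM in spleen and at most 10.2 FPKM elsewhere.

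RPL12, RPL36, RPS27, RPL9 and RPL35A are in RefSeq, but no model carried their names. Models that lie across these genes were present. ENSSSCG00000033019, at the RPL12 locus, was at 56.7 FPKM in heart, 48.7 in psoas major, 65.2 in longissimus dorsi, 32.1 in liver, 47.2 in kidney, 60.5 in lung, 129 in spleen, 104 in subcutaneous adipose and 103 in ovary and correlated with the family profile at r = 0.98. HSD11B1L, at the RPL36 locus, was at 32.3 to 130.1 FPKM with r = 0.92, and LONP1, a model on the other strand across the same gene, was at 14.0 to 44.5 FPKM with r = -0.0021. ENSSSCG00000031838, at the RPS27 locus, was at 39.97 to 300.2 FPKM with r = 0.82. ENSSSCG00000040273, at the RPL35A locus, was at 7.82 to 144 FPKM with r = 0.91, and ENSSSCG00000025192, at the RPL9 locus, at 11.6 to 64.2 FPKM with r = 0.79. These correlations are descriptions over 9 libraries that share depth and composition with the members. RPS14 lies almost wholly within the model of CD74, the invariant chain of antigen presentation, which was at 1160 FPKM in spleen and 94.2 to 553 FPKM elsewhere, while RPS14 was at 254 to 946 FPKM. In all, 27 members overlapped the model of another named gene.

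Introns of ribosomal protein genes are known hosts of small nucleolar RNAs, which guide the modification of ribosomal RNA. A model of at most 200 bp lay inside 26 of the 77 detected members on the same strand (33.8%), against 3.67% of all genes. There were 58 such models, of which 13 carried a SNORD or SNORA name. RPL4 held 5 of them. Their median level was 0.375 FPKM and the highest 18.4 FPKM. The small models were thus listed at low values inside hosts of high value.

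The members lie on 17 chromosomes, with 12 on chromosome 6, 11 on chromosome 1 and 4 (RPL10, RPL36A, RPL39 and RPS4X) on the X chromosome. Close neighbours were few. RPL3L starts 1964 bp from the end of RPS2, and RPS29 lies 19830 bp from RPL36AL. The neighbours RPS2 and RPL3L had unlike profiles, RPS2 being at 317 FPKM in heart, 260.0 in psoas major, 346 in longissimus dorsi, 184 in liver, 279 in kidney, 253 in lung, 406 in spleen, 386 in subcutaneous adipose and 346 in ovary.

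Over the 9 tissues, core genes followed each other closely. The median Pearson correlation over the 2485 pairs of core genes was 0.87, and the lowest was -0.40. Set against the median profile of the other core genes, the correlation was 0.9 or more in 48 of the 71 genes, for example 0.997 in RPS10 and 0.99 in RPS15. It was below 0.5 in 4: RPL39 at 0.24, RPL29 at 0.23, RPL15 at 0.18 and RPS21 at -0.09. Among the paralogs, RPL22L1 was at 0.82, RPS27L at -0.38 and RPL3L at -0.44. The points share library depth and composition, so these values describe the table and carry no test.

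Of 860 genes outside the family by symbol with a mean of 50 FPKM or more, 23 correlated with its median profile at 0.9 or more. The 10 highest were ENSSSCG00000033019 at the RPL12 locus, ENSSSCG00000004575, ENSSSCG00000002261, ENSSSCG00000035567, FLT3LG, LOC110255769, RACK1, EIF3F, LOC100525692 and LOC100516279. The first of them lies across RPL12 and the FLT3LG model covers the 3' part of RPL13A. Both may therefore hold reads of the family itself, which was not tested. RACK1, a scaffold protein on the small subunit that carries no RPS name, was at 582 FPKM in heart, 472 in psoas major, 549 in longissimus dorsi, 279 in liver, 335 in kidney, 482 in lung, 948 in spleen, 709.9 in subcutaneous adipose and 768 in ovary, with r = 0.97. EIF3F, a subunit of the initiation factor eIF3, was at 119 FPKM in heart, 91.0 in psoas major, 114 in longissimus dorsi, 46.8 in liver, 87.3 in kidney, 132 in lung, 193 in spleen, 182 in subcutaneous adipose and 172 in ovary, also with r = 0.97. FAU, whose product is cleaved to a ribosomal protein, had a model at 0.834 to 9.14 FPKM with r = 0.46.

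Genes that work with the ribosome were grouped into lists by role and compared in the same way. Ribosome biogenesis factors, which assemble the subunits in the nucleolus, had a median difference of 0.84 in ovary and 0.65 in spleen, against 0.47 and 0.20 for all genes. At 1 or more were 15 of 34 in ovary (26.8% of all genes) and 9 in spleen (17.4%), and at -1 or lower were 14 in liver (32.1%). Fibrillarin (FBL), the methyltransferase of ribosomal RNA, was 1.31 above the other classes in spleen and 1.29 in ovary. NAT10, an RNA acetyltransferase, was 3.46 above in ovary. The spleen and ovary medians stayed positive under the 4 other scalings.

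RNA polymerase I makes the precursor of ribosomal RNA. The median of 14 of its subunits and factors was 1.07 in ovary, where 8 were at 1 or more (26.8% of all genes) and 11 had their highest class (29%). It stayed positive in ovary under each scaling, between 0.43 and 1.11. POLR1E was 2.29 above the other classes in ovary and TAF1A 2.22. In spleen the median of this list was 0.58, with 1 of 14 at 1 or more (17.4% of all genes). For the ribosomal protein genes spleen was the highest class more often than ovary as deposited. With quantile normalisation this order was reversed, with spleen highest for 23 members (29.9%, against 15.8% of all genes) and ovary for 40 (51.9%, against 17.6%).

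Initiation factors had a median of -1.03 in liver (-0.04 with median-of-ratios factors), with 13 of 26 at -1 or lower (32.1% of all genes), including EIF3F at -1.52 and EIF3H at -1.42. In adipose their median was 0.47, positive under each scaling, and PABPC1, the poly(A)-binding protein, was 1.59 above the other classes. Of 10 elongation factor genes, 2 were at 1 or more in skeletal muscle (5.54% of all genes), EEF1A2 at 9.37 and TPT1, a translationally controlled gene listed with them, at 1.19. In liver, 4 were at -1 or lower (32.1% of all genes): EEF1A2, EEF1D, EEF1G and EEF2. EEF1A2 was not particular to liver, being at -2.17 to -3.47 in each class other than heart and skeletal muscle.

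The ribosome of mitochondria, made of different proteins, had another order of tissues. Its large subunit genes had a median of 0.58 in heart, with 9 of 45 at 1 or more (8.09% of all genes) and 26 highest there (7.12%). Its small subunit genes had a median of 0.53, with 6 of 28 at 1 or more and 13 highest in heart. MRPL51 was 2.80 above the other classes in heart, MRPL33 2.43 and MRPS6 2.07. Both heart medians stayed positive under each scaling, while the cytosolic ribosomal proteins were at -0.01 there and changed sign. In spleen the mitochondrial lists were at -0.03 and -0.06, against 0.88 for the cytosolic members.

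**Figure D5:**
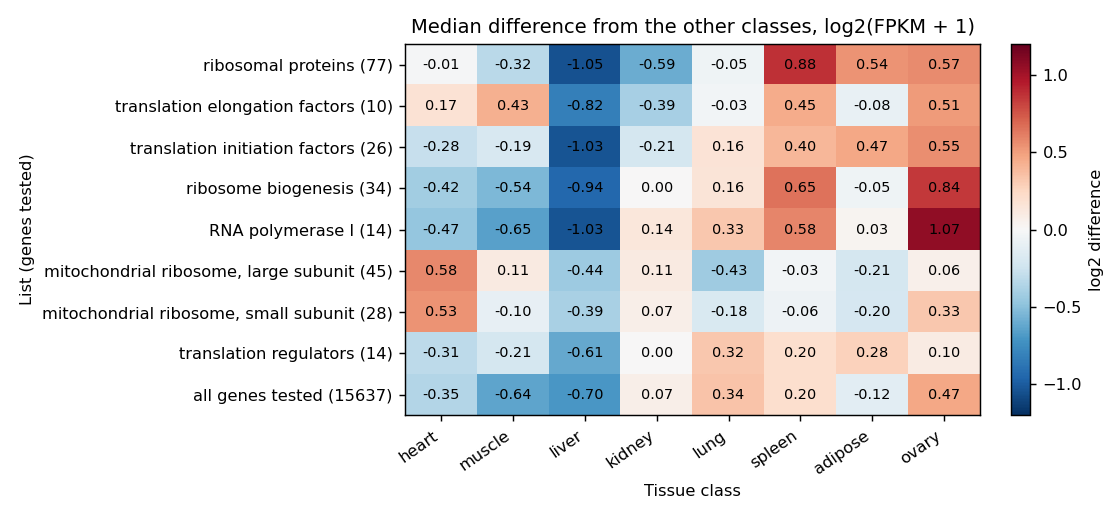
Median difference of each gene list (rows, genes tested in brackets) in a tissue class from the mean of the other classes (columns), on the log2(FPKM + 1) scale. Ribosomal proteins are at 0.88 in spleen and -1.05 in liver, the mitochondrial ribosome at 0.58 and 0.53 in heart and RNA polymerase I at 1.07 in ovary; the sign for ribosomal proteins in heart, muscle, lung and ovary, and for other lists in several cells, changes with the scaling of the libraries, as it does for the mitochondrial lists in liver.

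Among 14 regulators of translation and growth, MYC, a transcription factor that drives ribosome production, was at 3.17 FPKM in heart, 3.92 in psoas major, 1.52 in longissimus dorsi, 2.01 in liver, 2.17 in kidney, 10.7 in lung, 28.7 in spleen, 7.53 in subcutaneous adipose and 16.4 in ovary. It was 2.34 above the other classes in spleen and at -1.44 in liver. EIF4EBP1, which restrains initiation, was 2.12 above in skeletal muscle, and MTOR, the kinase that ties translation to nutrients, was -1.02 in liver. Of the list, 2 were at 1 or more in spleen (17.4% of all genes), MYC and RPS6KA1, and 4 at -1 or lower in liver (32.1%). None of the 10 listed host genes of small nucleolar RNAs that are not ribosomal was named in the table.

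In the library from mixed tissues, 76 of the 77 detected members lay between the lowest and the highest of the tissues that its label names. RPL15 was below that range. The share of all genes within their range was not computed, so this count shows nothing particular to the members. The median of the mixture minus the mean of its components was -0.03 on the log2 scale. RPL3L was at 22.4 FPKM in it, between the values of the muscles and those of the other tissues.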

How the data were processed

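RNA-seq libraries from 9 pig tissues and 1 mixture of tissues were used. The authors deposited 1 table of values per gene; the FPKM unit is not named in the deposited table and was inferred from non-integer values, from their sums and from StringTie being named. Per the submitters' processing notes, TopHat2 2.1.0, StringTie 1.2.2 and Sscrofa11.1 were used; what these sources leave out are the annotation release, strandedness and filters. Coordinates are those of the deposited table on Sscrofa11.1.

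Symbols came from Ensembl identifiers or, failing that, from the RefSeq gene overlapping reciprocally by at least 0.5. The text calls the 15637 genes that reached 1 FPKM in a tissue all genes. Of the 25880 rows of the deposited table, 71.2% were named. Levels were compared as log2(FPKM + 1), which understates differences of low genes, over 8 classes with the muscles averaged. Counts used differences of 1 (2-fold), ranges above 2 (4-fold) and departures of 1. No count model, test or error was possible with 1 library per tissue, and no depth-based interval is given.

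The members, 9 gene lists (196 genes) and thresholds were chosen with earlier results of these data known. The rule for genes named in the text took each paralog, the 5 highest and lowest core genes by mean and by range, the extreme core genes of each class, each departing core gene, each member listed at 0, list members past a threshold, the 10 genes most like the family and models overlapping a named member. RPL5, RPS6, RPSA, RPS27A, RPLP0, RPS19, RPL13, RPS20, RPL27A, RPS10, RPS14 and RPL4 were added after their values were seen. Some genes that the rule takes are not reported here. The scripts were tested on simulated data. Figures were drawn with matplotlib 3.10.9 and values computed with pandas 2.3.3 and numpy 2.4.6 in Python 3.11.15.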

Additional observations from a re-analysis of the deposited data

How the results depend on the processing

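Of 506 recomputed values of 108 results, 380 stayed within 1.5 times (or, on the log2 scale, kept their sign and moved by less than 1.5-fold), 103 moved farther and 23 changed sign. No paired analysis was possible because each tissue has 1 library. The cause of these shifts was not tested, apart from settings that use fewer genes or another threshold by construction. With median-of-ratios factors and with centring, the member medians were 0.30 and 0.30 in heart, 0.57 and 0.42 in skeletal muscle, -0.033 and -0.27 in liver and -0.17 and -0.070 in ovary. The lung median was 0.042 with libraries scaled to the mean sum, -0.68 with median-of-ratios factors and 0.18 with quantile normalisation, and the heart median was 0.025 with the muscles separate. Members at -1 or lower in liver numbered 1 with median-of-ratios factors and 1 with centring (1.3% each, against 12.4% and 8.01% of all genes), and 64 at a 1.5-fold and 1 at a 4-fold threshold. Members at 1 or more in spleen numbered 2 with median-of-ratios factors, 13 with quantile normalisation and 6 with centring (2.60%, 16.9% and 7.79%, against 10.7%, 11.8% and 10.6% of all genes), and 64 and 1 at the 1.5-fold and 4-fold thresholds. Spleen was the highest class of 16, 23 and 24 members under these scalings. A range above 2 was found in 8 members with median-of-ratios factors, 8 with centring, 9 without liver and 11 without spleen, while 75 ranged above 1 and 3 above 3. With quantile normalisation it was found in 31 (40.3%, against 45.5% of all genes). Detection in all 9 tissues covered 49 members with Ensembl names alone and 50 with overlapping models left out. The latter also turned the subunit difference in ovary from 0.053 to -0.024. Scaling was also applied to the pairs of tissues, which was chosen after seeing the data. With median-of-ratios factors and with centring, the core median was 0.37 and 0.69 for spleen minus liver, -0.016 and -0.042 for spleen minus adipose, -0.43 and -0.35 for ovary minus heart, -1.48 and -1.23 for lung minus longissimus dorsi, and -0.70 and -0.51 for kidney minus liver. With libraries scaled to the mean sum and with quantile normalisation it was -0.092 and -0.39 for heart minus lung and -0.059 and -0.21 for psoas major minus kidney, and with quantile normalisation -0.34 for adipose minus ovary.

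With the 100 highest genes of each library left out, members included, the members' share was 5.996% in heart, 3.72% in kidney, 2.70% in lung, 2.71% in spleen, 3.75% in adipose and 1.77% in ovary. Between 8 and 51 members were among those 100 genes. With the 100 highest non-members left out instead, which was chosen after seeing the data, it was 16.4% in heart, 14.3% in psoas major, 19.7% in longissimus dorsi and 10.2% in liver. With the opposite-strand model added to RPL3, also chosen afterwards, the RPL3L share was 3.004% in liver, 2.39% in kidney, 0.0728% in lung, 0.0643% in spleen, 0.107% in adipose and 0.0482% in ovary. With a pseudocount of 5, 6 core genes departed, and at a departure of 1.5, 2, RPL3 and RPL39. Of the 10 genes most like the family, 4 were kept with quantile normalisation. Leaving out liver or spleen, exchanging models at the RPL13A and RPL10A loci and rescaling the departures were also chosen after seeing the data. Without replicates, neither biological nor technical spread is known, and depth is known only roughly.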
